A study of Mus musculus with 12 samples.

Results

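Spinous keratinocytes are described here as single epidermal cells whose keratin footprints were mostly of Krt1 and Krt10, the type II and type I keratin pair of the suprabasal epidermis. A ribosome footprint is the piece of a message left under a ribosome after nuclease digestion, so the deposited count of a gene in a well is a count of ribosomes caught on its mRNA. The wells were chosen by the measured counts themselves. A well on the old or young plates needed at least 100 counts in all, at least 5 counts over Krt1, Krt10, Krt5 and Krt14, and a share of Krt1 plus Krt10 among those 4 keratins (the keratin ratio) of at least 0.5. Wells in which 9 immediate early genes (Fos, Jun, Junb, Egr1, Ier2, Atf3, Nr4a1, Zfp36 and Btg2) held 2% of the counts or more, or in which Krt79, Krt17 and Cst6 of the upper hair follicle held 1% or more, were left out. This left 376 spinous wells of 1906 kept wells on 10 plates.

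The cells came from the trypsinised back skin epidermis of female C57BL/6 mice, 3 old (22 to 26 months) and 3 young (56 to 60 days), and each well of a 384-well plate received a live sorted cell. All mice had received cycloheximide, which halts ribosomes on the mRNA, by tail vein shortly before death, and the drug stayed in the buffers. The animals are called by the postnatal day in their labels, P758, P722 and P662 for old and P60, P59 and P57 for young, and plates of the same day were taken as 1 animal. Spinous wells numbered 148 in P758, 10 in P722 and 26 in P662, and 184 in P60, 5 in P59 and 3 in P57, so 2 animals gave most of the wells. Basal wells, the main comparison, met the same minimums and exclusions with a keratin ratio under 0.2 and numbered 890. Transitional wells, with a ratio of 0.2 to under 0.5, numbered 67.

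Keratinocytes divide in the basal layer of the epidermis, where integrins and laminins hold them to the basement membrane and Krt5 and Krt14 form their filaments. When they leave that layer they build Krt1 and Krt10 filaments, enlarge their desmosomes and become the spinous layer, named for the spiny look that the many desmosomes give. Above it, granular cells load keratohyalin and lamellar granules, and the dead cornified layer seals the skin. Notch signalling and factors such as p63, Grhl1, Grhl3, Ovol1 and Zfp750 are known to act in this course.

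The counts behind a value set how firmly it can be read. Spinous wells summed to 298070 counts in P758, 3455 in P722 and 21479 in P662, and to 554454 in P60, 3207 in P59 and 1859 in P57. A single count was therefore worth 3.35 CPM (a gene's counts as a share of all counts of a sum, on the usual scale) in P758 and 1.80 in P60, but 289 in P722, 312 in P59 and 538 in P57. Over all 376 wells the count per well ran from 129 to 34615, with a median of 1083. The largest well held 51.9% of the spinous counts of P59 and 49.1% of those of P57. In P758, P722, P662 and P60 it held 9.0%, 14.6%, 14.0% and 6.24%. The plates shared 383 of their 384 well barcodes, which mark positions on the plate, and none of the 154 pairs of spinous wells with the same barcode held identical counts. In bulk sums of wells, fewer cells with a gene and fewer footprints per cell cannot be told apart.

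Promoters of 4 genes that rose together in spinous wells are shown first with that of Krt10, because 3 of them lie side by side on chromosome 7. In the RefSeq annotation of GRCm38.p6, the build the authors used, Sbsn lies at chr7:30732674-30756134, Dmkn at chr7:30763756-30781066 and Krtdap at chr7:30787905-30791089. Sbsn encodes suprabasin, Dmkn dermokine and Krtdap the keratinocyte differentiation-associated protein, all secreted proteins of the suprabasal layers. Each line gives the 120 bases just before a transcript start, on the strand of the gene, and capitals mark a TATAAA or TGANTCA match. The windows are chr7:30787785-30787904, chr7:30751351-30751470 and chr7:30763636-30763755 on the plus strand, and chr11:99389365-99389484 and chr15:101869706-101869825 on the minus strand.
Krtdap: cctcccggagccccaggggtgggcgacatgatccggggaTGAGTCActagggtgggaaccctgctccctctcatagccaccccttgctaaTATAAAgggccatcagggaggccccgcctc
Sbsn: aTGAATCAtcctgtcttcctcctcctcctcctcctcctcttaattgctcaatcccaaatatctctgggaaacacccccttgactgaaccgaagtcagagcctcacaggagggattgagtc
Dmkn: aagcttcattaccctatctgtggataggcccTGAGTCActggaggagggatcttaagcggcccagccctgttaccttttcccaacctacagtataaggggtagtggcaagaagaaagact
Krt10: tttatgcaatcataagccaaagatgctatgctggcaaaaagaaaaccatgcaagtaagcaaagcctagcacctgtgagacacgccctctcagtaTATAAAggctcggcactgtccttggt
Krt77: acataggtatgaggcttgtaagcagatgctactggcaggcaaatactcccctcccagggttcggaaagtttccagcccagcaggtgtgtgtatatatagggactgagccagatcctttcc
TGANTCA, the AP-1 site in its core letters, was found in the 250 bases before the start of Krtdap, Sbsn and Dmkn, at 81, 119 and 89 bases before it, and not in those of Krt10, Krt77 and Calm4, another of the genes with large rises, whose promoter is not shown. Of 32851 promoters of that length in the table, 6.75% held TGANTCA on either strand and 12.4% held TATAAA. AACNGGTT, the core of the Grhl site, was in 1.79% of them and in none of these 6 genes. Dmkn has further starts in the table, of which the first is shown. The Sbsn window, chr7:30751351-30751470, lies inside the span given for that gene, so the start used is not the first base of that span.

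The label was checked against the data before anything was compared. Krt1 had 34686, 44863 and 34499 CPM in the spinous wells of P758, P722 and P662, and 23982, 28999 and 46799 in those of P60, P59 and P57. Krt10 had 59332, 61650 and 70674 in the same old animals and 57552, 41472 and 90371 in the young ones. These keratins chose the wells, so their levels describe the selection. In basal wells neither exceeded 722.2 CPM in any animal. Krt5 was between 0 and 10420 CPM in spinous wells and between 17745 and 48926 in basal wells of the 6 animals.

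Most spinous wells were far from the threshold. The keratin ratio was 1 in 142 wells, at least 0.95 in 233, from 0.8 to under 0.95 in 69 and from 0.5 to under 0.8 in 74. At the edge, 5 wells stood at exactly 0.5 and the nearest well outside was at 0.492. For the minimum of keratin counts, 4 spinous wells had exactly 5, and 7 wells with 4 fell short. The nearest wells to the immediate early limit had 1.99% inside and 2.02% outside, and to the follicle limit 0.917% inside and 1.08% outside. The immediate early limit left out 76 wells that otherwise met the rule, 32 in P758, 38 in P662, 1 in P60 and 5 in P59. The follicle limit left out 16, of which 6 were in P758 and 10 in P60.

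Defining markers of immune, pigment and connective tissue cells were at or near 0 in the spinous wells. Of 6 T cell markers, Cd3e, Trdc and Nkg7 had 0 counts and the others 4 counts in all over the 376 wells. Cd207 of Langerhans cells had 1 count, Dct and Pmel of melanocytes 1 each with Tyrp1 and Mlana at 0, and Col1a1 and Col1a2 of fibroblasts 5 each. The T cell list was at 0 to 312 CPM in the spinous sums of the 6 animals, where 312 is a single count in P59, and at 0 to 3132 in basal sums, where 3132 is 3 counts in P57. Outer bulge markers summed to 0 to 312 CPM in spinous wells and 0 to 2528 in basal wells. Of the sebaceous list, Scd1 gave 224 counts in spinous wells, Plin2 38, Mgst1 3, Elovl3 1 and Awat1 0. The list stood at 359 CPM in spinous wells of P758 and 269 in those of P60, against 199 and 217 in their basal wells. Upper follicle markers outside the rule had 90 counts of Krt16, 37 of Sostdc1, 9 of Defb6, 2 of Fst and 1 of Krt6a in spinous wells, and summed to 305 CPM in P758 and 81.2 in P60, against 629 and 350 in their basal wells. The part of either list in the results was not tested.

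Compared with basal wells of the same animals, spinous wells carried more footprints of a set of secreted and filament proteins of the suprabasal layers and fewer of the basement membrane, Notch ligand and cell cycle genes. The test was edgeR's quasi-likelihood fit on counts summed per animal and class, with the animal as a block, in the 5 animals with at least 5 wells of each class (P57 had 2 basal wells). The 16 genes of the selection rule were left out of it. Of 250 genes with enough counts in these shallow sums, 66 were higher in spinous wells (26.4%) and 75 lower (30.0%) at an adjusted p under 0.05. Because the classes were cut on keratin counts of the same wells, these p-values say how steadily other genes went with the keratin ratio across animals. How many genes could be tested turned on the shallowest and deepest animals. Without P758 40 of 54 genes were called and without P60 37 of 54, against 1376 of 4248 without P722, 1231 of 4018 without P662 and 1277 of 4334 without P59.

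Krt77, a type II keratin of the suprabasal layers, had 36357, 18813 and 42367 CPM in spinous wells of P758, P722 and P662, and 36063 and 22451 in those of P60 and P59. In basal wells it had 321, 0 and 996 in those old animals and 496 and 0 in the young ones. No spinous sum overlapped a basal sum, and the log2 difference was 6.45 (SE 0.31, adjusted p = 1.62e-22). P57, outside the fit, had 52179 CPM in 3 spinous wells and 0 in 2 basal wells.

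Krtdap had 3747, 2605 and 3026 CPM in spinous wells of P758, P722 and P662 and 3266 and 1871 in those of P60 and P59, against 131, 0 and 0 in basal wells of the old and 12.1 and 0 in those of the young animals. The zeros rest on sums of 5539, 5018 and 3089 counts, which allow up to 542, 598 and 971 CPM in P722, P662 and P59. Its log2 difference was 6.31 (SE 0.67, adjusted p = 0.000219). Sbsn had 4036, 1158 and 4935 in spinous wells of the old and 3266 and 2806 in those of the young animals, against 112 and 93.4 in basal wells of P758 and P60 and 0 in the others. It differed by 5.13 on the log2 scale (SE 0.25, adjusted p = 1.62e-22). Dmkn, the neighbour between them, had 1871 to 4452 CPM in spinous sums and 262 to 408 in basal sums, and differed by 3.35 (SE 0.21, adjusted p = 2.27e-18).

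The next largest rises were of genes with varied known roles. Calm4, a calmodulin-like protein of differentiating epidermis, was higher by 4.75 on the log2 scale (SE 0.28). Abca12, the lipid transporter of the lamellar granules, was higher by 3.39 (SE 0.31) and Alox12e, an epidermal lipoxygenase, by 3.12 (SE 0.30). Lypd3, a GPI-anchored surface protein, was higher by 3.30 (SE 0.33). The desmogleins Dsg1a and Dsg1b, the cadherins of suprabasal desmosomes, were higher by 2.56 and 2.67. Acsl1, which activates long-chain fatty acids, Fam25c, Prdx5, a peroxiredoxin, Susd2 and Lgals3, galectin-3, were higher by 2.02 to 2.44. The adjusted p of each of these genes was at most 9.12e-09, and 44 of the 66 genes that rose did so in each of the 5 animals.

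The largest falls included the Notch ligand Jag2 and several genes of the basement membrane. Jag2 had 10.1, 0 and 46.6 CPM in spinous wells of P758, P722 and P662 and 30.7 and 312 in those of P60 and P59, against 1069, 722.2 and 1794 in basal wells of the old and 967 and 647 in those of the young animals. The spinous value of P59 was a single count, and no spinous sum reached a basal one. Jag2 fell by 5.40 on the log2 scale (SE 0.40, adjusted p = 4.93e-16). Thbs2, a thrombospondin, had 2 counts in all 376 spinous wells and was at 440 to 1083 CPM in basal wells of the 5 animals.

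Of the laminin chains, Lamb3 fell by 4.40 on the log2 scale (SE 0.27) and Lama5 by 4.69 (SE 0.37), and Agrn, the basement membrane proteoglycan agrin, fell by 5.27 (SE 0.37). Itgb4, the integrin of the hemidesmosome, had 164, 289 and 93.1 CPM in spinous wells of P758, P722 and P662 and 272 and 1559 in those of P60 and P59, against 2324, 3069 and 2790 in basal wells of the old and 2324 and 2590 in those of the young animals. It fell by 3.39 (SE 0.25, adjusted p = 1.88e-12), and P59 was the highest spinous sum, from 5 counts. Fcgbp fell by 3.79, Cdh3, P-cadherin, by 4.20, Ltbp4, which binds latent TGF-beta, by 4.41, Smoc2 by 4.35 and S100a6 by 4.78. Postn, periostin, fell by 3.87, but 72.0% of its 50 spinous counts lay in a single well. Of the 75 genes that fell, 54 did so in each of the 5 animals.

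**Figure D1:**
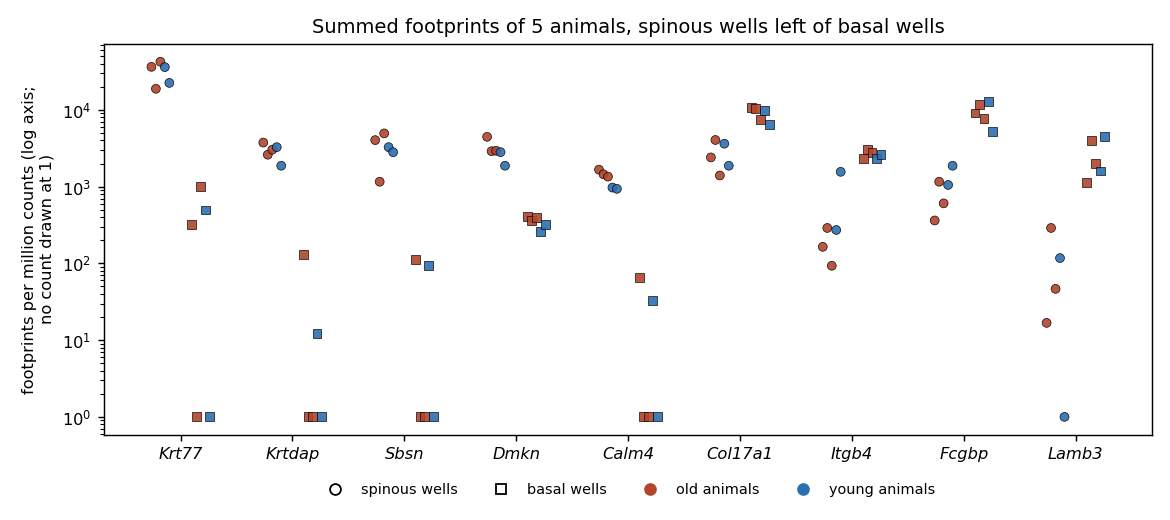
CPM (log axis, no count drawn at 1) of 5 suprabasal and 4 basal genes in wells summed per animal for the 5 animals tested, spinous wells as circles to the left and basal wells as squares to the right, old animals in red and young in blue. Krt77 lies at 18813 or more in each spinous sum and at 996 or less in each basal sum, while Lamb3 lies at 289 or less in spinous and at 1140 or more in basal sums.

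To reach genes with fewer counts, the same fit was run on the 5 plates of P758 (2 plates) and P60 (3 plates), a setting chosen after the data were seen, with the plate as a block. Plates of a mouse are technical replicates, so these p-values measure the spread between plates of 2 animals. Of 5512 genes tested, 888 were higher in spinous wells (16.1%) and 1061 lower (19.2%). All 66 genes that rose in the 5-animal fit were called higher here too, and 74 of the 75 that fell were called lower. The wells of P758 and P60 gave most counts of both fits, so this overlap is not independent support. The gene lists below are counted in this fit, and were drawn up with earlier results of these data known.

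Desmosome genes were mostly higher. Of 17 genes on the list 14 were tested, 11 were higher and 3 lower, with a median log2 difference of 1.48 beside -0.03 over all genes tested. Over all genes tested 16.1% were higher and 19.2% lower, so the falls are near that share. Dsp, desmoplakin, which ties keratin filaments to the junction, had 21518, 20839 and 26025 CPM in spinous wells of P758, P722 and P662 and 19286, 24010 and 29048 in those of P60, P59 and P57, against 9767, 12999 and 10163 in basal wells of the old and 8875, 9388 and 6263 in those of the young animals. Every spinous sum was above every basal sum, and in the 5-animal fit Dsp was higher by 1.27 on the log2 scale (SE 0.21, adjusted p = 1.40e-06). Dsc3, desmocollin 3, rose by 1.61 there, Jup, plakoglobin, by 1.47, Perp by 1.41, Pkp1, plakophilin 1, by 1.36 and Ppl, periplakin, by 1.19. The members that fell on the deep plates, named after their values were seen, were the desmogleins Dsg3 (-2.40) and Dsg2 (-3.92) and Pkp4 (-1.76), while Dsc1, a desmocollin of the upper layers, rose by 5.17.

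Adherens and tight junction genes were mostly higher. Of 18 genes 15 were tested, 9 were higher and 1, Cdh3, lower, with a median of 0.45. Cdh1, E-cadherin, did not pass the test, at 0.27 (SE 0.13, adjusted p = 0.0858), nor did the catenins Ctnna1 (0.12) and Ctnnb1 (-0.18). Nectin1, a cell adhesion receptor, rose by 1.10 and Afdn, afadin, its partner at the junction, by 0.67. The largest rises of this list, picked after their values were seen, were of the claudin Cldn4 (6.98) and of Nectin4 (5.05).

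All 17 basal attachment genes were tested and lower, with a median of -2.13. Col17a1, the transmembrane collagen of the hemidesmosome, had 2402, 4052 and 1397 CPM in spinous wells of P758, P722 and P662 and 3627, 1871 and 1614 in those of P60, P59 and P57, against 10717, 10291 and 7573 in basal wells of the old and 9702, 6475 and 8351 in those of the young animals. Its groups did not overlap, and it fell by 1.75 on the log2 scale in the 5-animal fit (SE 0.22, adjusted p = 3.21e-09), a smaller fall than those of Lamb3 and Itgb4. Krt15, a basal type I keratin outside the selection rule, had 3627, 8104 and 3026 CPM in spinous wells of the old animals and 9408, 1559 and 3228 in those of the young. Basal wells held 10870, 22928 and 15345 in the old and 21372, 12625 and 9395 in the young animals, so that P60's spinous sum was just above the lowest basal sum, that of P57. Krt15 fell by 1.59 in the 5-animal fit (SE 0.22, adjusted p = 1.94e-08). Plec and Dst, the plakins that tie keratin to the hemidesmosome, fell by 1.25 and 1.66, Itga6, the partner of Itgb4, by 2.36 and Lama3, a laminin 332 chain, by 1.66.

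Cell cycle genes had few counts in spinous wells. Of 29 genes on the proliferation list 22 were tested on the deep plates and 21 were lower, with a median of -4.52. Mki67 had 8 counts in the 376 spinous wells, of which 3 each were in P758 and P59 and 2 in P60. That is 10.1, 0 and 0 CPM in spinous wells of P758, P722 and P662 and 3.61, 935 and 0 in those of P60, P59 and P57, against 754, 361 and 797 in basal wells of the old and 1350, 0 and 2088 in those of the young animals. P59 went the other way, on 3 counts. In the 5-animal fit Mki67 fell by 6.76 (SE 0.90, adjusted p = 0.000189). Top2a, topoisomerase II alpha, had 22 counts in spinous wells and fell by 5.34 on the deep plates. H4c4, a histone H4 gene, kept 226 counts and fell by 1.88 in the 5-animal fit, and Tubb5, a beta tubulin, fell by 2.57.

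Notch pathway genes moved in both directions. Of 18 genes 13 were tested on the deep plates, 6 were higher and 6 lower, with a median of 0.10. The receptors Notch3 and Notch2 rose by 3.53 (SE 0.20) and 1.45 (SE 0.14), and Notch1 did not pass the test at 0.10 (SE 0.13). Of the targets, Hes1 rose by 2.16 and Hey1 fell by 0.32. Adam17, a sheddase known to cleave Notch, rose by 0.87. The ligand Jag2 fell by 5.30 on these plates, and the ligands Dll1 (-3.40) and Jag1 (-0.54), named after their values were seen, fell too. Notch3 had 587 and 700 CPM in spinous wells of P758 and P60 and 109 and 47.0 in their basal wells, and 0 counts in the shallow spinous sums of P722 and P59.

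Among 27 epidermal transcription factors 25 were tested, 12 were higher and 4 lower, with a median of 0.44. Over all genes tested 16.1% were higher and 19.2% lower, so the falls of this list are near that share. Zfp750, which is required for terminal differentiation, rose by 4.48 (SE 0.22), with 456, 289 and 931 CPM in spinous wells of P758, P722 and P662, 399, 312 and 538 in those of P60, P59 and P57, and 28.0 and 17.2 in basal wells of P758 and P60 with none in the other animals. Grhl1, a grainyhead-like factor, rose by 3.17. Trp63, the gene of p63, a master factor of the basal layer, fell by 0.70 in the 5-animal fit (SE 0.19, adjusted p = 0.00146), and Gata3 rose by 0.57 (SE 0.20, adjusted p = 0.0138). Klf5 did not pass the test, at 0.14 (SE 0.13, adjusted p = 0.477). Grhl3 (3.60), Ovol1 (3.23) and Foxn1 (3.50), picked after their values were seen, were higher on the deep plates.

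Barrier lipid genes were higher, 14 of 16 tested of 25 with none lower and a median of 1.81. Elovl4, which makes very long chain fatty acids, rose by 5.86 (SE 0.24), Acer1, an alkaline ceramidase, by 5.75 (SE 0.25), Fabp5, an epidermal fatty acid binding protein, by 5.31 (SE 0.33), Dgat2 by 4.11 and Sptlc3, a subunit of serine palmitoyltransferase, by 2.82. Elovl4 had 611 and 635 CPM in spinous wells of P758 and P60 and 18.7 and 9.53 in their basal wells. On the list of cholesterol synthesis genes 11 of 19 tested of 26 rose and none fell, with a median of 1.08. Sqle, squalene epoxidase, rose by 3.40 and Cyp51 by 1.82, and Hmgcs1 did not pass the test at 0.35 (SE 0.15, adjusted p = 0.0563).

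On the list of other suprabasal genes 14 of 15 tested of 20 rose, none fell, and the median was 3.58. Mt4, the metallothionein of stratified epithelia, rose by 6.10 (SE 0.28), Ptgs1, a cyclooxygenase, by 3.49 and Lgals7, galectin-7, by 1.14. Skint5, Skint9 and Skint10, of a family of epithelial membrane proteins, rose by 6.98, 5.38 and 5.48, and were picked after their values were seen.

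**Figure D2:**
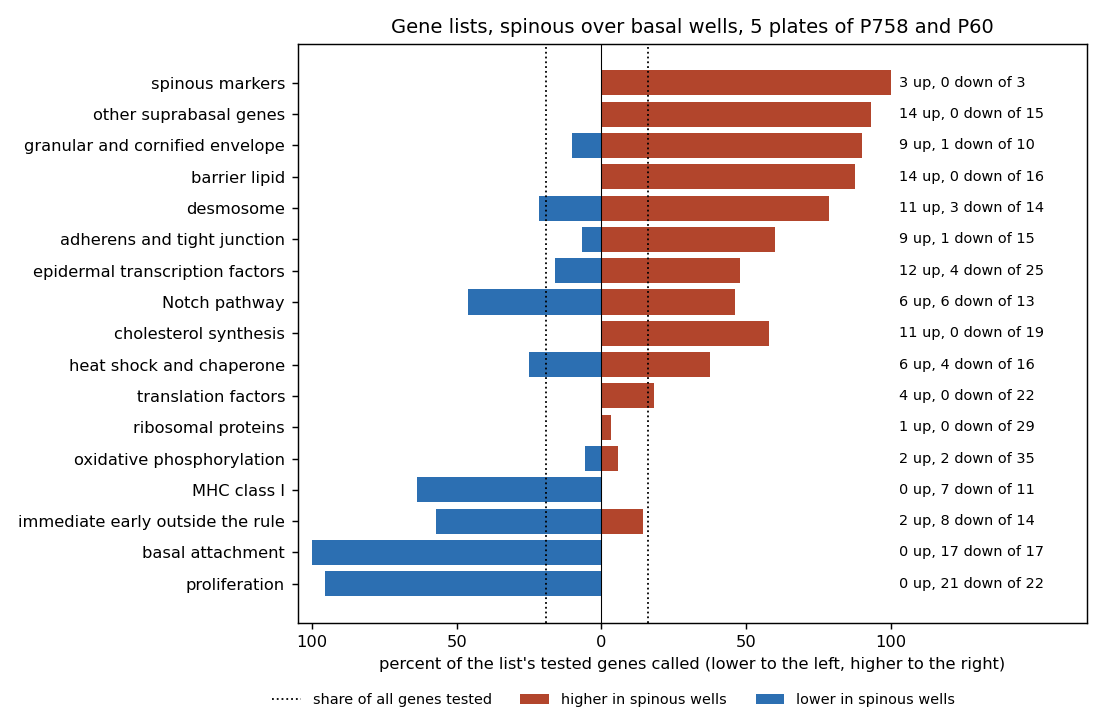
Percent of each gene list's tested members called in spinous over basal wells on the 5 plates of P758 and P60, higher to the right in red and lower to the left in blue, with the counts at the right edge and dotted lines at the shares of all genes tested, 16.1% higher and 19.2% lower. Suprabasal, barrier lipid and desmosome lists extend to the right, and all 17 basal attachment genes and 21 of 22 proliferation genes lie to the left.

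Granular layer genes need a well named before their values. A single well of P758 that met the spinous rule, with 26814 counts and a keratin ratio of 0.999, held 9.0% of that animal's spinous counts and 23.2% of the 8478 counts of the granular and cornified envelope list over all spinous wells. It held 264 of 281 counts of Lor, loricrin, 170 of 173 of Flg, filaggrin, 73 of 73 of Cdsn, corneodesmosin, and 82 of 92 of Ivl, involucrin. Its depth is far above the median of 1083, and whether it held a single cell was not tested. Outside it the defining genes of the granular layer were close to absent. Of 35 genes on the list, 10 were tested on the deep plates, 9 rose and 1, Tgm5, a transglutaminase, fell by 1.29, with a median of 2.45. Without that well 9 rose and 1 fell again, with a median of 2.28. Evpl, envoplakin, with 2530, 3473 and 2142 CPM in spinous wells of P758, P722 and P662 and 1984, 1871 and 3228 in those of P60, P59 and P57, rose by 1.91 in the 5-animal fit (SE 0.21, adjusted p = 4.71e-11), and Scel, sciellin, rose by 1.39. Spink5, a protease inhibitor of the upper epidermis, rose by 4.71 there. Its level in spinous wells of P758 was 1805 CPM with that well and 442 without it, against 757.5 in P60 with no well left out. The fit without that well called 149 of 251 genes, against 141 of 250 with it, and 1945 of 5515 on the deep plates, against 1949 of 5512.

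Within the spinous wells, levels differed between bins of the keratin ratio, which is itself made from the rule, so these are descriptions. Krt77 had 40964, 12461 and 11489 CPM in P758 wells with ratios of at least 0.95, 0.8 to under 0.95 and 0.5 to under 0.8, and 50129, 15938 and 7946 in P60 wells. Without the granular-rich well the first of these was 29718 in P758. Krtdap had 4150, 2147 and 1245 in the same bins of P758 and 4514, 1676 and 550 in those of P60. Its neighbours on the chromosome were lowest in the middle bin of P758. Sbsn had 4469, 785 and 2383 there, against 4787, 669 and 705 in P60, and Dmkn 4712, 1885 and 3877, against 3804, 1237 and 1006 in P60. Without the granular-rich well the first bin of P758 held 3865 of Krtdap, 2973 of Sbsn and 2584 of Dmkn, the last below its lowest-ratio bin.

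The 2 hemidesmosome genes were lowest in the highest bin. Col17a1 had 1921, 5760 and 4411 CPM in P758 and 2176, 5459 and 6805 in P60, from the highest ratio bin to the lowest. Itgb4 had 104, 367 and 569 in P758 and 183, 376 and 477 in P60. Dsp changed least of these genes across the bins, with 22116, 16650 and 19492 in P758 and 21721, 15645 and 14595 in P60. Krt15 stood at 3452, 3874 and 5015 in P758 but at 5664, 16021 and 15466 in P60. The bins held 105, 23 and 20 wells of P758 and 98, 39 and 47 of P60.

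**Figure D3:**
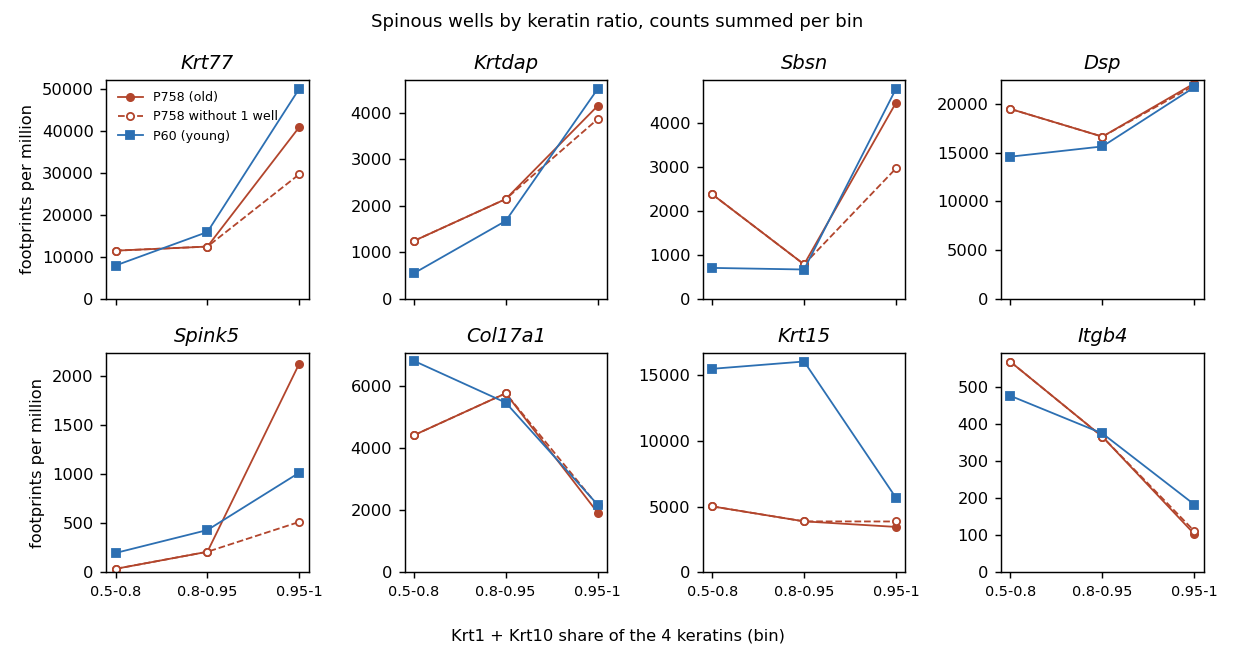
CPM of 8 genes in spinous wells summed within 3 bins of the keratin ratio (low to high), for P758 (red circles), P758 without its granular-rich well (open red circles) and P60 (blue squares). Krt77 and Krtdap are highest in the bin of 0.95 and above, and Itgb4 is lowest there, in both animals.

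Single wells differed widely within each animal. In the 289 spinous wells of at least 500 counts, Krt10 was counted in each and made up 0.426% to 13.3% of the counts, with a median of 3.58%. Krt1 was missing from 4 of these wells and Krt77 from 5, while Krtdap was missing from 74 and Sbsn from 99. A gene at the median Sbsn share of 0.0875% has less than 1 count in a well of 500, so an empty well is not evidence that the gene was silent.

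The split between the keratin partners ranged widely over wells, and counting error alone widens such a range in wells with few keratin counts. The part of counting error in it was not tested. Krt10 as a share of Krt1 plus Krt10 counts, not corrected for length, ran from 23.5% to 100% in 109 wells of P758, with a median of 61.8%, and from 28.0% to 100% in 161 wells of P60, with a median of 67.4%. Across wells of at least 500 counts, the shares of Krt10 and Krt77 had a Pearson r of 0.50 in P758 (n = 109) and 0.76 in P60 (n = 161). For Krt1 and Krt77 r was -0.13 and 0.14. Krt77 and Sbsn had r of 0.74 and 0.70. Spearman rank correlations in P758 and P60 were 0.58 and 0.48 for Krt77 and Sbsn and 0.48 and 0.64 for Krt10 and Krt77. For Krt1 and Krt77 they were -0.08 and 0.26. These points share a library, a plate series and, as shares, the well's total as denominator.

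**Figure D4:**
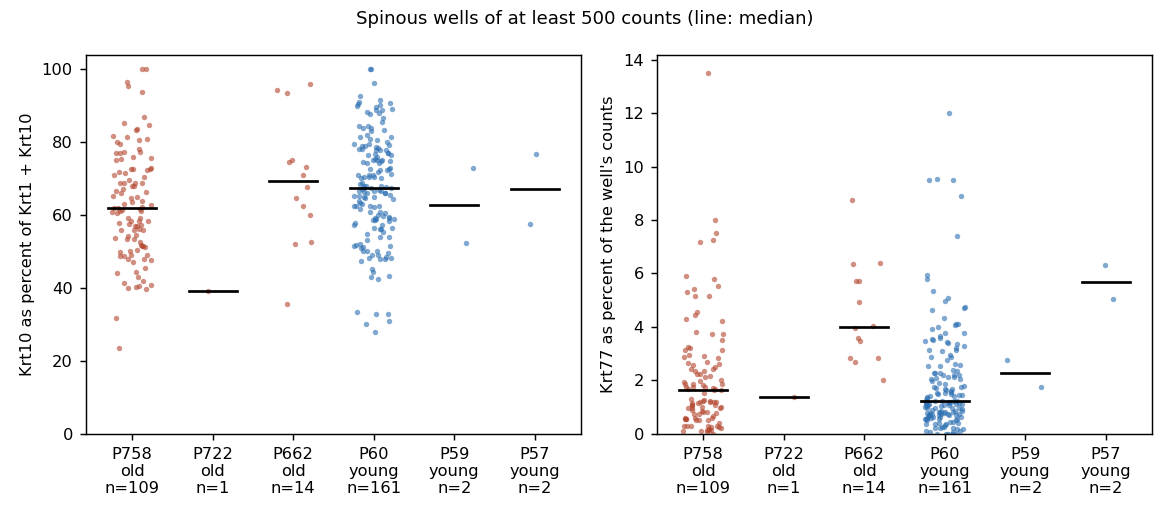
Each point is a spinous well of at least 500 counts, by animal with old animals (red) to the left of young (blue), and the line is the median. The left panel gives Krt10 as a percent of Krt1 plus Krt10 counts and the right panel Krt77 as a percent of the well's counts. Medians of the left panel are 61.8% in P758 and 67.4% in P60.

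Transitional wells lay between the classes in keratin ratio and allowed a test over a smaller step. Only P758 (28 wells) and P60 (36 wells) had at least 5 of them, so the fit rests on 4 sums with the animal as a block. The transitional sums held 51292 counts in P758 and 54477 in P60, so a single count was worth 19.5 and 18.4 CPM. The largest well held 21.1% of the transitional counts of P758 and 15.1% of those of P60. A floor of 3 counts in 1 animal was 58.5 and 55.1 CPM. Of 3834 genes, 117 were higher in spinous wells (3.05%) and 111 lower (2.9%). With 2 animals no fit could be made without either of them, and DESeq2 called 44 of the 1381 genes it gave an adjusted p.

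Psapl1, Sbsn and Krt78 were among the largest rises over transitional wells. Psapl1, a saposin-like protein, had 678 and 528 CPM in spinous wells of P758 and P60 against 58.5 and 0 in their transitional wells, and rose by 4.53 (SE 0.57, adjusted p = 1.03e-12). Sbsn had 4036 and 3266 against 429 and 128 and rose by 3.91 (SE 0.35, adjusted p = 2.15e-25). Krt78, a type II keratin, had 795 and 595 against 39.0 and 73.4 and rose by 3.73 (SE 0.48). Both animals moved the same way for each of these genes.

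Agpat4 and Klk5, an acyltransferase and a kallikrein protease, had no count in the transitional wells of either animal. Against a floor of 3 counts over both animals, Agpat4 was at least 5.13-fold and Klk5 at least 3.60-fold higher in spinous wells. Skint5 rose by 4.36, Plekha5 by 4.29, Rarres1 by 4.23, Prxl2b by 3.86 and Aadacl2 by 3.59. Some of this rested on the granular-rich well of P758. Without it Dsc1 rose by 2.98 in place of 4.35 and Spink5 by 2.40 in place of 3.42, Hal, histidine ammonia lyase, no longer passed at 2.25 (adjusted p = 0.130) in place of 4.20, and Klk5, Asprv1 and Casp14 had too few counts to be tested. Without it 200 of 3527 genes were called.

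The largest falls over transitional wells were of Mki67 and Il1r2, and basal attachment genes fell as a list. Mki67 had 10.1 and 3.61 CPM in spinous wells of P758 and P60 against 799 and 73.4 in their transitional wells, and fell by 5.53 (SE 0.59, adjusted p = 1.98e-17). Its transitional value in P60 was little above the floor of 55.1 CPM. How far its transitional counts came from single wells was not tested. Aspm, a spindle protein, fell by 4.75, Il1r2, a decoy receptor for interleukin 1, by 5.00 and Antxr1, a collagen-binding receptor, by 4.22. Lamb3 had 16.8 and 117 against 1131 and 679 and fell by 3.54 (SE 0.36, adjusted p = 8.78e-17). Jag2 fell by 3.67, Lama5 by 3.58, Agrn by 3.44, S100a6 by 3.23, Smoc2 by 2.75, Col18a1 by 2.80 and Col16a1 by 2.68. Palld, a protein of the actin cytoskeleton, fell by 3.62, Abcb1b by 3.01 and Mthfd1, of folate metabolism, by 2.74. Of the desmosome list 5 of 14 genes tested rose and 2 fell, and of the basal attachment list 11 of 15 fell and none rose. Of the proliferation list only Mki67 fell among 5 genes tested, with a median of -1.07, and Tubb5 (-1.07), Mcm6 (-1.14), Rrm1 (-0.91) and H4c4 (0.07) did not pass the test.

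The age comparison asks whether spinous cells differ between old and young skin. Among wells with at least 5 keratin counts, 25.9% were spinous in P758 (exact binomial 95% interval 22.4 to 29.7%), 35.7% in P722 (18.6 to 55.9%) and 21.7% in P662 (14.7 to 30.1%), against 21.0% in P60 (18.3 to 23.8%), 17.9% in P59 (6.06 to 36.9%) and 50.0% in P57 (11.8 to 88.2%). The groups overlapped, the old mean being 27.8 ± 7.20% and the young mean 29.6 ± 17.7% (SD, n = 3 each), and a two-sided exact permutation test gave p = 1. The smallest p that 3 against 3 can give is 0.1. P57 has 6 such wells, and without it the old mean was 8.35 percentage points above the young one (exact permutation p = 0.2). The ages then did not overlap, and 0.2 is the smallest p that 3 against 2 can give. The sign also turned without P662 (1.20), with wells above the immediate early limit kept (4.59) and with all kept wells as the denominator (3.58). With wells of at least 500 counts the old mean was 28.8 ± 12.0% and the young mean 45.9 ± 23.2%, a difference of -17.0 points (SD, n = 3 each, exact permutation p = 0.3).

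The keratin split and the depth of the wells overlapped too. Krt10 made up 63.1%, 57.9% and 67.2% of Krt1 plus Krt10 counts in P758, P722 and P662 and 70.6%, 58.8% and 65.9% in P60, P59 and P57, a difference of the means of -2.38 percentage points (exact permutation p = 0.7). The median count per spinous well was 938, 381 and 536.5 in the old and 1647, 205 and 759 in the young animals (exact permutation p = 0.7). P60 is both the deepest animal and, with P758, the one that most gene values rest on.

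No gene was called between old and young spinous wells. In the edgeR fit on the 5 animals with at least 5 spinous wells, 0 of 330 genes passed (0.0%), 7 had an unadjusted p under 0.05, and the lowest adjusted p was 0.993. The rule's genes were kept in this fit, and Ier2, Egr1 and Zfp36, which the rule caps, were among the 7. With the rule's genes left out of the edgeR fit, 0 of 315 passed and 6 had an unadjusted p under 0.05. DESeq2 also called 0, with 0 genes at an unadjusted p under 0.05. Of the 330 genes, 68 (20.6%) had old and young values that did not overlap in these 5 animals. With so few animals such a share can arise from order alone, so it is not read as a difference with age. Leaving out an animal opened the fit to genes with fewer counts, and 7 of 3168 were called without P722, 6 of 2912 without P662, 14 of 4321 without P59, and 0 without P758 or P60.

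The genes with the smallest p are given as values. Dst, dystonin, had 1077, 3473 and 1071 CPM in P758, P722 and P662 and 2768, 2806 and 538 in P60, P59 and P57, a log2 difference of -0.99 (SE 0.39, adjusted p = 0.993). Old P722 was the highest of all and the groups overlapped. Ier2 had 503, 0 and 885 in the old and 216, 624 and 0 in the young animals, a difference of 1.29. The rule caps this gene, so its difference is a value of the selection and is given with no test. Zfp36l2 (-1.07), Fcgbp (-1.24) and Hspa5, the endoplasmic reticulum chaperone BiP (0.96), were the others, each with an adjusted p of 0.993.

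The spinous markers showed no called difference with age. Krt77 had 36357, 18813 and 42367 CPM in old and 36063, 22451 and 52179 in young spinous wells, and Sbsn and Krtdap overlapped in the same way. The desmosome list summed to 4.95%, 5.01% and 5.35% of spinous counts in P758, P722 and P662 and to 4.58%, 4.86% and 6.35% in P60, P59 and P57. Of 11 desmosome genes tested with age 0 passed, with a median of 0.17 beside 0.04 over all genes tested. Basal attachment genes summed to 1.08%, 2.08% and 0.913% in the old and 2.08%, 1.31% and 0.914% in the young animals.

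The deep plates compare a single old animal, P758, with a single young one, P60. A call there can be age, mouse or plate run, which cannot be told apart. The mix of wells differed too, with a keratin ratio of at least 0.95 in 105 of 148 wells of P758 and 98 of 184 of P60. The part of this mix in the calls was not tested. Of 3772 genes 23 were higher (0.61%) and 8 lower (0.212%) in P758. Genes of sterol synthesis were among the rises. Cyp51, lanosterol demethylase, had 396, 289 and 652 CPM in P758, P722 and P662, and 95.6, 0 and 0 in P60, P59 and P57, and was higher in P758 than P60 by 2.08 (SE 0.34, adjusted p = 0.000769). The old and young values did not overlap, but the zeros of P59 and P57 allow up to 935 and 1614 CPM, more than any old value.

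Sqle had 332, 0 and 186 in the old and 92.0, 0 and 0 in the young animals and differed by 1.86 (SE 0.34, adjusted p = 0.00172) on the deep plates. Msmo1, a sterol methyl oxidase, differed by 1.91. Of the 26 genes of the cholesterol list, 17 were tested there, 4 were higher and none lower, with a median of 1.06 beside 0.00 over all genes tested. The summed list made up 0.441%, 0.260% and 0.507% of spinous counts in P758, P722 and P662 and 0.232%, 0.312% and 0.161% in P60, P59 and P57, so young P59 lay above old P722.

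Of the 23 genes higher in P758, 9 were the immediate early genes that the rule caps at 2% of a well, so their differences are values of the selection and are given with no test. The cap had removed 32 wells of P758 and 1 of P60. Atf3 differed by 2.92, Btg2 by 2.86 and Jun by 1.56 on the log2 scale. Of the immediate early genes outside the rule 8 were tested, 0 were called higher and 0 lower, with a median of 0.31, and 1 was called higher without the granular-rich well. Over the 6 animals the ages overlapped. Atf3 had 282, 0 and 931 CPM in P758, P722 and P662 and 37.9, 1247 and 0 in P60, P59 and P57, and the 9 genes together made up 0.524%, 0.376% and 1.06% of spinous counts in the old and 0.199%, 1.22% and 0.0538% in the young animals. P59, a young animal, had the highest share, from 3207 counts, of which 51.9% lay in a single well.

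Mt4, higher by 1.02 in P758 than in P60 (adjusted p = 0.0196), was the only gene of the other suprabasal list called, among 14 tested. Lower in P758 than in P60 were Igfbp3, an IGF binding protein (-1.51), Adh7, an alcohol dehydrogenase (-1.65), the semaphorin Sema3c (-1.50), Ackr4, a chemokine scavenger (-1.98), Wnk2 (-1.10) and Tnxb (-1.32), with Lamb3 (-2.69) and Dst (-1.24) of the basal attachment list. Igfbp3 had 174, 0 and 140 CPM in the old and 512, 0 and 0 in the young animals. Igfbp3 (-1.90), Sema3c (-2.16), Tnxb (-2.26), Lamb3 (-4.40) and Dst (-1.66) were also lower in spinous than in basal wells in the 5-animal fit. P60 had the larger share of spinous wells with a keratin ratio under 0.95, and the part of that in these falls was not tested. Without the granular-rich well 42 of 3384 genes were called, 29 higher and 13 lower, and the median over the granular list was -0.20 in place of 1.18.

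**Figure D5:**
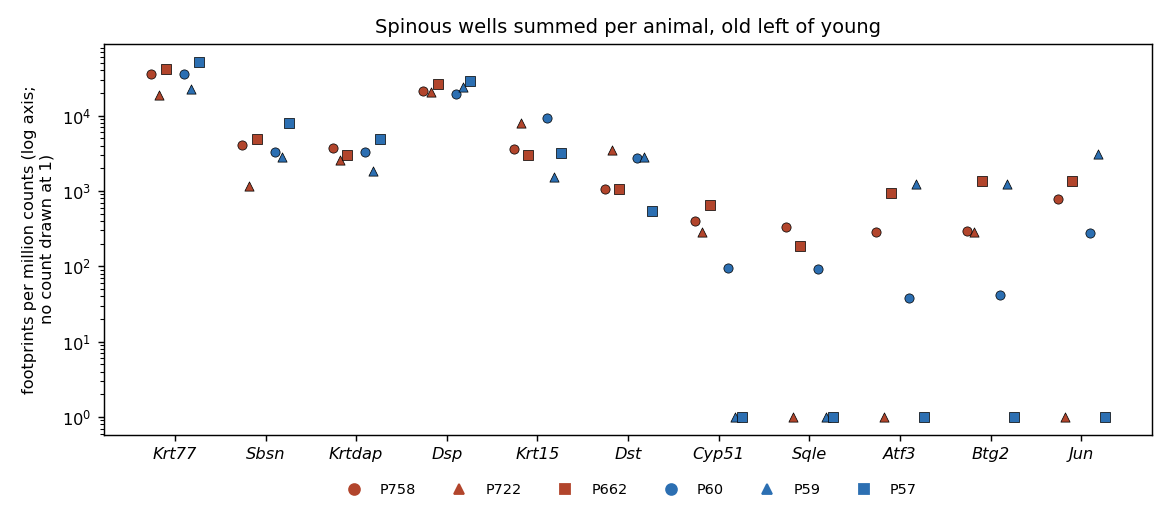
Footprints CPM counts (log axis, no count drawn at 1) in spinous wells summed per animal, old animals in red to the left and young in blue to the right, for 3 markers, Dsp, 2 basal genes, 2 cholesterol synthesis genes and 3 immediate early genes. Krt77, Sbsn, Krtdap and Dsp overlap between the ages, and young P59 is above each old animal for Jun.

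A test added after the data were seen asked whether the change between spinous and basal wells itself differed with age. The interaction in edgeR called 1 of 250 genes (0.4%), Krtdap, whose rise was smaller in old animals by 2.98 on the log2 scale (SE 0.65, adjusted p = 0.00136). Krtdap had 42 counts in basal wells of P758 and 19 in those of P60, whose basal sum is deeper, and 0 in the basal wells of the other animals. The call was lost with wells thinned to at most 500 counts (-1.12, adjusted p = 0.967) and when any of the 5 animals was left out, and without P758 the sign turned (4.70).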

How the data were processed

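Footprints were counted in wells of 12 plates of mouse back skin epidermis. The deposited values are whole-number counts per gene and well, which the authors made with fastp, Bowtie2, STAR, UMI-tools and featureCounts on GRCm38.p6, per the submitters' processing notes. For versions and settings of these tools, the sources used here say nothing. Genes numbered 22416 and the 10 old and young plates were used. The members, gene lists and thresholds were chosen with earlier results of these data known.

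Counts were summed per animal and class and fitted with edgeR 4.0.16 in R 4.3.3 (filterByExpr, TMM, robust quasi-likelihood, animal as a block, Benjamini-Hochberg adjustment at 0.05), with at least 5 wells per sum. The SE was taken as |log2 difference| divided by the root of edgeR's F. CPM are over all counts of a sum. DESeq2 1.42.0 was an alternative. For the 3 values given once per animal, exact permutation was two-sided, with scipy 1.17.1. The fits were tested on simulated counts. Intervals and floors of 3 counts cover counting error only. UMI-tools is named with no role, so whether PCR copies were merged is not known here. No doublet caller was run. Genes named were up to 15 of the largest rises and falls among called genes of at least 100 CPM that moved the same way in each animal, or the 5 smallest p, plus up to 6 members per list by spinous counts and the rule and marker genes. For 3 list genes with older symbols, synonyms in the reference table gave the match. The nuclease and Sca-1-negative plates entered no test.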

Additional observations from a re-analysis of the deposited data

Results flagged for a closer look

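The difference between old and young in the rise of Krtdap from basal to spinous wells was -2.98 on the log2 scale in the interaction test. It rests on 42 basal counts in P758 and 19 in P60. Without P758 it was 4.70, and the part of the deeper sums in it was not tested.

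A plate of P758 that was used to try several ribonucleases, outside the selection, held 56 wells that met the same keratin rule among 192 wells with at least 5 keratin counts. Of the 141 genes called between spinous and basal wells, 139 had at least 10 counts on that plate, and 136 of them lay in the same direction there, 63 of 66 that rose and 73 of 73 that fell. Krt77 had 749 counts in its 56 spinous wells, of 36540 in all, and 4 in its 69 basal wells, of 36596. No test was run on it, and it shares its mouse with 2 of the plates used. The plate sorted for Sca-1-negative cells had 52 kept wells, of which 8 had at least 5 keratin counts and 1 was spinous. A further 1 well there met the keratin ratio but not the immediate early limit, and 3 met it but not the follicle limit.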

How the results depend on the processing

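The number of genes called depended on the wells and animals summed, the filter on low counts and the tool. The number tested changed with the setting and stands beside each count. For spinous over basal wells, 141 genes of 250 became 1711 of 15217 with no filter and 1564 of 6662 at a mean of at least 20 CPM. They became 1914 of 6772 with wells of at least 500 counts and 1703 of 5007 with plates in place of animals. With wells high in immediate early genes kept they were 392 of 703, and with no replicate block for the animal 68 of 111. At a ratio of at least 0.8 they were 1338 of 4093, and after thinning 69 of 105. The deep plates gave 1949 of 5512, and 1945 of 5515 without the granular-rich well. Without single animals the fit called from 37 of 54 to 1376 of 4248. For spinous over transitional wells, 228 of 3834 became 44 of 1381 by DESeq2 and 125 of 6924 at a mean of at least 20 CPM. They became 91 of 1333 with wells high in immediate early genes kept and 20 of 790 after thinning. With no replicate block they were 157 of 3834, and with no filter 234 of 12778. For old over young, 0 became 31 with no filter, 14 at 20 CPM, 25 at 500 counts, 24 with plates, 1 with immediate early wells kept (Cyp51), 16 at a ratio of 0.8, 31 on the deep plates, 42 on these without the granular-rich well, and 0 to 14 without single animals. The interaction called 0 genes after thinning and 0 to 1 without single animals, and Krtdap of -2.98 ran from -5.16 to 4.70 without single animals. The difference in the spinous share of -1.85 percentage points became -17.0 with wells of at least 500 counts, 4.59 with immediate early wells kept, 3.58 over all kept wells, and -7.72 to 8.35 without single animals. The Krt10 split of -2.38 points was -7.66 at 500 counts and ran from -5.51 to 0.36, with 0.046 without P722, and the median depth difference of -252 counts from -584.5 to 136.5, without single animals, with -420 at 500 counts. The cause of these shifts was not tested, except that filters change how many genes are tested. Of the named genes, none of 30 over basal and none of 30 over transitional wells turned sign under any setting run. No paired analysis across ages was possible because old and young animals share no replicate numbers, and the animal block was used within animals.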

Other observations

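Over all genes tested on the 5 plates of P758 and P60, 16.1% were higher and 19.2% lower in spinous than in basal wells. MHC class I genes, which present peptides to T cells, were lower for 7 of 11 genes tested and higher for none, with a median log2 difference of -0.42. B2m, the light chain, fell by 0.52 and H2-K1 by 0.41. Growth factor and cytokine genes moved both ways, 3 of 13 up, near the share over all genes, and 7 down. Il34 rose by 1.91 and Fgfr3, a fibroblast growth factor receptor, fell by 0.74, while Egfr did not pass the test at -0.31. Of the immediate early genes outside the selection rule 2 of 14 rose, near the share over all genes, and 8 fell.

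The housekeeping groups differed in how many of their genes passed the test. Of 22 translation factors tested 4 rose and none fell, of which the rises are near the share over all genes, of 29 ribosomal protein genes 1 rose and none fell, of 7 mitochondrially encoded genes 0 rose and 0 fell, and of 35 oxidative phosphorylation genes 2 rose and 2 fell. Glycolysis genes, 12 tested, had 1 higher and 5 lower, of which Pfkp, a phosphofructokinase, fell by 0.61. Of the chaperones 6 of 16 rose and 4 fell, of which the falls are near the share over all genes. Hspb1, a small heat shock protein, was up by 1.28 and Hsp90b1 down by 0.52. Of antioxidant genes 4 of 14 rose and 5 fell. Krt16, a keratin of stressed epidermis, had 80 counts in spinous wells of P758 and 10 in those of P60, of which 56 lay in a single well.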
